A study of Homo sapiens with 14 samples.

Results

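The 10 genes described here encode the 5 Rel/NF-kappaB subunits (NFKB1, NFKB2, REL, RELA and RELB), the inhibitors NFKBIA and NFKBIE, the ubiquitin-editing enzyme TNFAIP3 and the cellular inhibitors of apoptosis BIRC2 and BIRC3. They were taken by symbol from a table of 61541 annotated genes, and all 10 were among the 19181 genes with enough reads to be tested. RNA was sequenced from the human pancreatic cancer line labelled BxPC-3, collected on day 3, in 3 libraries of cells given a control short hairpin (genotype label WT, treatment label shControl) and 3 of cells given a hairpin against HDAC5 (genotype label HDAC5 knockdown, treatment label shHDAC5). HDAC5 is a class IIa histone deacetylase. The series also holds GATA1 chromatin immunoprecipitation from PANC-1, another pancreatic cancer line, labelled with the same pair of treatments at day 3. Which hairpin sequence was used, and whether cells were a pool or 1 clone, is not stated by the labels.

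Each library held between 15179758 and 17854340 read counts. No label ties the libraries of a group to separate cultures, so a p-value here reflects variation among these libraries only, and that variation may be technical. HDAC5 itself stood at 94.9 ± 2.99 CPM (read counts scaled to library size, SD, n = 3) under shControl labels and at 164 ± 4.44 CPM (SD, n = 3) in those labelled shHDAC5, against the direction of the label. Directions below are therefore between libraries as labelled. Of the 9 ductal epithelial markers looked up, KRT8 and KRT18 were abundant, but KRT19 did not exceed 0.168 CPM in any library, and EPCAM and CDH1 stayed under 3 CPM. Leukocyte RNA, which carries much of the NF-kappaB system, was scarce. PTPRC, the pan-leukocyte marker CD45, was at or below 0.177 CPM everywhere, 6 of 8 leukocyte markers never reached 3 CPM, and the 8 summed to between 10.02 and 11.2 CPM under shControl labels and between 11.2 and 11.8 CPM under shHDAC5 labels. That sum hides changes in opposite directions. ITGAM went from no count to 2.78 CPM and CD14 from 0.0667 to 1.70 CPM, while CSF1R went from 6.70 to 2.98 CPM, and their part in the results was not tested. All 6 endothelial and 6 of 8 fibroblast markers also stayed under 3 CPM, and the fibroblast list summed to 121 to 131 CPM against 85.8 to 91.2 CPM. In such bulk RNA, fewer cells that express a gene and less RNA per cell cannot be told apart.

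NF-kappaB proteins are dimers that sit in the cytoplasm until an upstream kinase removes what holds them there. In the canonical arm, the IKK complex phosphorylates the inhibitors NFKBIA and NFKBIE, which are then destroyed, and dimers of RELA or REL with p50, the processed product of NFKB1, enter the nucleus. In the non-canonical arm, the kinase MAP3K14 (NIK) triggers processing of the NFKB2 precursor p100 to p52, which pairs with RELB. TRAF3 and the BIRC2 and BIRC3 proteins keep that kinase low in resting cells. Several of these genes are themselves textbook NF-kappaB targets, so inhibitors and brakes are made again after activation.

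Promoter sequences of the members are shown because that feedback runs through kappaB sites. The windows below carry matches to the degenerate kappaB consensus, the decamer to which these dimers bind. The sequence table, from RefSeq on GRCh38.p14, held 13 promoter windows of 250 bases before to 50 bases after a start for 8 of the 10 members; RELB and NFKBIE had none. Searched on both strands, with overlapping matches allowed, 6 of the 8 members had a match, in 7 of their 13 windows. Over all 35116 windows in the table, 5.91% held one. Members were listed partly for known feedback, so this share describes them and tests nothing. BIRC3 and NFKBIA are shown for the 250 bases before the start, and the others for 30 bases around 1 match each. Each sequence runs 5′ to 3′ on the strand of the gene, and capitals mark the consensus match. The NFKB2 and TNFAIP3 windows belong to starts inside the annotated span of the gene.
BIRC3 (chr11:102317234-102317483, plus strand): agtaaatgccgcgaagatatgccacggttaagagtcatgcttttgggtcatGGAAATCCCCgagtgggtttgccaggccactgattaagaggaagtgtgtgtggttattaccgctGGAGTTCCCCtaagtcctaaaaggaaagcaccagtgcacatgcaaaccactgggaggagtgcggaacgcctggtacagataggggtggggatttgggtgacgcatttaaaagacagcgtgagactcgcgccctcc
NFKBIA (chr14:35404750-35404999, minus strand): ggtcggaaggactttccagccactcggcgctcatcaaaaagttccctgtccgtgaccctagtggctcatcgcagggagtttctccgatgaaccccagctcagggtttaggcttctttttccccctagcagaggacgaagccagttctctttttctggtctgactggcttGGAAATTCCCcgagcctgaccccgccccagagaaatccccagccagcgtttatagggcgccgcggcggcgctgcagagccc
NFKB1 (chr4:102501300-102501329, plus strand): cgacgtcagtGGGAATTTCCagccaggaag
REL (chr2:60881517-60881546, plus strand): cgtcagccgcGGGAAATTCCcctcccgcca
NFKB2 (chr10:102394490-102394519, plus strand): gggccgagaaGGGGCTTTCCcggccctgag
NFKB2 (chr10:102395674-102395703, plus strand): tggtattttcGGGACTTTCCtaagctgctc
TNFAIP3 (chr6:137867182-137867211, plus strand): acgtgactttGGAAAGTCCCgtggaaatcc
BIRC3 had its matches at 199 to 190 and 135 to 126 bases before the start, both on the opposite strand. NFKBIA had one at 81 to 72 bases before the start and NFKB1 one at 49 to 40. REL held a near-palindromic pair of overlapping matches at 47 to 37 bases before the start. In TNFAIP3 a pair of matches lay at 67 to 58 and 55 to 46 bases before the start. NFKB2 had matches in 2 of its 3 windows. The canonical decamer of the immunoglobulin kappa enhancer, in capitals in the second NFKB2 line and in reverse complement in the TNFAIP3 line, was found in 0.191% of all windows. No window of RELA or BIRC2 held a match, which says only that these letters are not there. The letters AGATAA, a form of the GATA site looked up because the study immunoprecipitated GATA1, were in none of the 13 windows and in 10.3% of all 35116. Other forms of the site were not searched, and the BIRC3 sequence above holds AGATAG. The count therefore does not show that these promoters lack GATA sites.

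Between the labels, 6 of the 10 genes were higher in the libraries labelled shHDAC5 (NFKB2, REL, RELA, RELB, NFKBIE and BIRC3), 3 were lower (NFKB1, NFKBIA and TNFAIP3), and BIRC2 did not pass. These calls come from edgeR's quasi-likelihood test over all genes, with Benjamini-Hochberg adjusted p under 0.05. The background is high. By the same rule 84.7% of the 19181 genes were called, 44.8% higher and 39.9% lower, so 9 called of 10 is near the background. All 10 members had CPM values that did not overlap between the groups, where 84.8% of tested genes did not. The median log2 fold change was 0.88 over the members and 0.09 over all tested genes. The latter depends on which low genes are tested: it was 0.68 with every gene that had any count and -0.0037 with only genes of 10 counts in every library, where the members' median was 0.84 and 0.98. The members differed in the size and sign of their changes, and 5 rose and 1 fell by at least 2-fold, against 26.4% and 20.1% of tested genes.

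**Figure D1:**
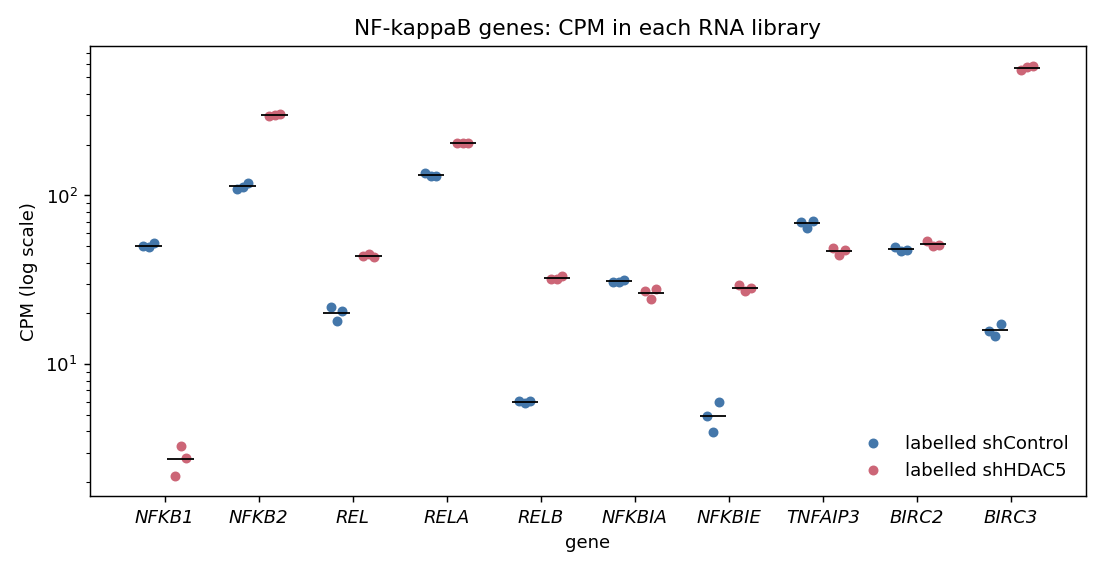
CPM of each NF-kappaB gene (vertical axis, log scale) in the 3 libraries labelled shControl and the 3 labelled shHDAC5; each point is a library and each bar a group mean. The points of NFKB1 drop from about 50.5 to 2.75 CPM and those of BIRC3 climb from 15.9 to 570 CPM, while BIRC2 stays between 46.7 and 53.5 CPM.

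The precursor-type subunits NFKB1 and NFKB2 went in opposite directions. NFKB1 (ENSG00000109320, chromosome 4, 102501359 to 102617302, hg38), which encodes p105 and its product p50, read 49.9, 49.3 and 52.4 CPM in shControl replicates 1, 2 and 3 and 2.19, 3.26 and 2.80 CPM in shHDAC5 replicates 1, 2 and 3. In counts that is 775, 705 and 869 against 37, 57 and 50. Every library labelled shHDAC5 lay far below every library labelled shControl, an 18.4-fold difference of the means. The log2 fold change was -4.19 ± 0.09997 (standard error, SE, edgeR adjusted p = 1.16e-65), and 8.28% of tested genes had a larger change in either direction. Long noncoding genes overlap NFKB1 on the annotation, and the strand setting of the counting is unknown here.

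NFKB2 (ENSG00000077150, chromosome 10, 102394110 to 102402529), which encodes p100 and p52, was already the more abundant of the pair. It read 110, 113 and 118 CPM under shControl labels and 295, 299 and 306 CPM under shHDAC5 labels. The groups were well separated, with a log2 fold change of 1.40 ± 0.032 (SE, edgeR adjusted p = 2.11e-67). Its partner RELB (ENSG00000104856, chromosome 19, 45001464 to 45038192), the subunit of the non-canonical dimer, rose more. RELB was 6.05, 5.94 and 6.04 CPM in the libraries labelled shControl and 31.9, 32.1 and 33.4 CPM in those labelled shHDAC5. Its log2 fold change was 2.43 ± 0.0946 (SE, edgeR adjusted p = 5.30e-46), and 17.9% of tested genes changed more.

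RELA and REL, the subunits with transactivation domains that serve the canonical arm, rose less. RELA (ENSG00000173039, chromosome 11, 65653601 to 65663857), the p65 protein, read 135, 130 and 131 CPM against 205, 206 and 206 CPM, and the groups did not overlap. Its log2 fold change of 0.64 ± 0.0322 (SE, edgeR adjusted p = 1.93e-36) is exceeded in size by 62.3% of tested genes. REL (ENSG00000162924, chromosome 2, 60881574 to 60931612), the c-Rel protein best known from lymphocytes, read 21.8, 18.2 and 20.6 CPM against 43.7, 44.9 and 43.1 CPM. Again no library of one label reached the other, and the log2 fold change was 1.12 ± 0.0675 (SE, edgeR adjusted p = 3.05e-30).

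**Figure D2:**
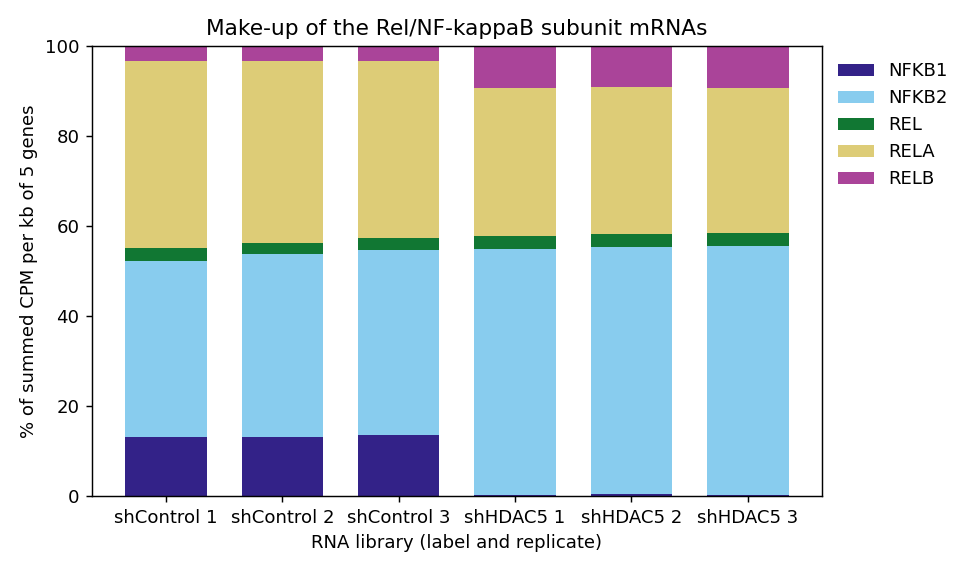
Share of each of the 5 subunit genes in their summed CPM per kilobase, per library (vertical axis, percent; one stacked bar per library). NFKB1 shrinks from 13.3% to 0.373%, NFKB2 widens from 40.3% to 54.9% and RELB from 3.33% to 9.30%.

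To compare subunits with each other, CPM were divided by the gene length given in the deposited table. The lengths of the transcripts present in these cells were not measured, so comparisons between genes depend on that value. The 5 subunits together summed to 59.7 ± 1.12 CPM per kilobase (SD, n = 3) under shControl labels and 116 ± 1.46 CPM per kilobase (SD, n = 3) under shHDAC5 labels. NFKB1 supplied 13.3% ± 0.199 of that sum in the first group and 0.373% ± 0.0715 in the second (SD, n = 3 each). NFKB2 supplied 40.3% ± 1.12 and 54.9% ± 0.325, and RELB 3.33% ± 0.0469 and 9.30% ± 0.135. RELA went the other way in share, from 40.5% ± 1.09 to 32.5% ± 0.401, although its own level rose. REL supplied the least in the first group, with 2.57% ± 0.219, and 2.88% ± 0.0808 in the second. Without division by length, REL stood above RELB in the first group, at a mean of 20.2 against 6.01 CPM. The plot of subunit shares shows that the bars of a group are nearly alike.

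The inhibitors of the canonical arm did not move together. NFKBIE (ENSG00000146232, chromosome 6, 44258166 to 44265551), the epsilon form, read 4.96, 3.98 and 5.97 CPM under shControl labels and 29.7, 27.1 and 28.3 CPM under shHDAC5 labels. All 3 of the latter were well above the former, a log2 fold change of 2.499 ± 0.105 (SE, edgeR adjusted p = 4.89e-43). NFKBIA (ENSG00000100906, chromosome 14, 35401513 to 35404749), the alpha form and the classical rapid feedback inhibitor, read 30.6, 30.9 and 31.6 CPM against 27.1, 24.3 and 27.8 CPM. It was slightly lower in the second group, with no overlap, and its log2 fold change was -0.23 ± 0.0687 (SE, edgeR adjusted p = 0.00141). That call rests on the scaling. NFKBIA did not pass with upper-quartile factors (log2 fold change -0.09, adjusted p = 0.206), with total counts (-0.05, adjusted p = 0.514) or when only genes with 10 counts in every library were kept (-0.12, adjusted p = 0.0838).

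TNFAIP3 (ENSG00000118503, chromosome 6, 137866349 to 137883312), the A20 protein that trims ubiquitin chains from the signalling complex and so ends the response, was lower. It read 70.1, 64.1 and 71.1 CPM in the libraries labelled shControl and 49.0, 44.7 and 47.9 CPM in those labelled shHDAC5, with a clear gap between the groups. The log2 fold change was -0.54 ± 0.0501 (SE, edgeR adjusted p = 3.59e-18), and 67.6% of tested genes changed more. A long noncoding gene that overlaps its annotated span, WAKMAR2, went from 29.7 ± 2.46 to 5.58 ± 0.656 CPM (SD, n = 3 each). Whether the exons of the pair share bases was not examined. Reads in any shared bases cannot be told apart without the strand setting.

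The neighbours BIRC3 and BIRC2 on chromosome 11 differed sharply from each other. BIRC3 (ENSG00000023445, 102317484 to 102339403), the cIAP2 ubiquitin ligase and a standard NF-kappaB target, read 15.7, 14.7 and 17.3 CPM under shControl labels and 550.3, 577 and 582 CPM under shHDAC5 labels. In counts that is 244, 210 and 286 against 9310, 10074 and 10404, a 35.9-fold difference of the means. The log2 fold change was 5.16 ± 0.0422 (SE, edgeR adjusted p = 4.06e-111), and 6.19% of tested genes changed more in either direction. BIRC2 (ENSG00000110330, 102347214 to 102378670), the closely related cIAP1, is the next gene downstream on the annotation and lies on the same strand. BIRC2 read 49.8, 46.7 and 47.6 CPM against 53.5, 50.2 and 50.9 CPM. Its values were marginally higher in the second group and did not pass, with a log2 fold change of 0.10 ± 0.0524 (SE, edgeR adjusted p = 0.0681). It passed with RLE factors (0.13, adjusted p = 0.0166), upper-quartile factors (0.24, adjusted p = 1.41e-05), total counts (0.28, adjusted p = 4.33e-07) and the filter of 10 counts in every library (0.21, adjusted p = 0.000182), always upward. The assignment of reads shared by these related genes is unknown here.

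**Figure D3:**
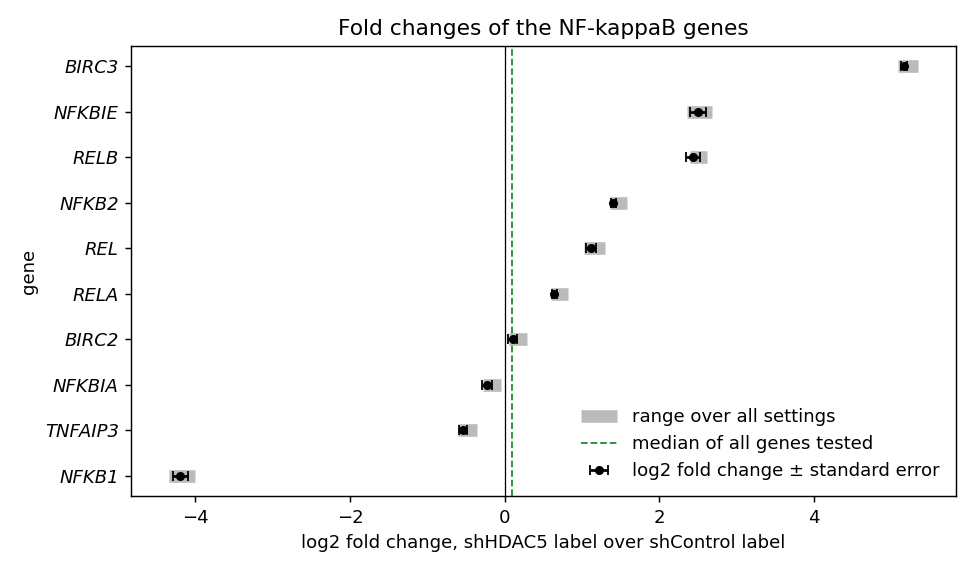
Log2 fold change of each gene, libraries labelled shHDAC5 over those labelled shControl (horizontal axis), with the standard error as a bar, the range over all settings as a grey band, and the median of all tested genes as a dashed line. BIRC3 sits at 5.16 and NFKB1 at -4.19, far from the line, and BIRC2 and NFKBIA lie beside it.

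The scaling of libraries moves the median of all tested genes, by 0.14 on the log2 scale with upper-quartile factors and by 0.18 with total counts. Both shifts are larger than the change of BIRC2 (0.10) and smaller in size than that of NFKBIA (-0.23). Ratios of counts inside a library are free of that choice. NFKB2 counts were 2.196, 2.29 and 2.26 times those of NFKB1 in the libraries labelled shControl and 135, 91.7 and 109 times in those labelled shHDAC5. BIRC3 counts were 0.315, 0.314 and 0.363 times those of BIRC2 in the first group and 10.3, 11.5 and 11.4 times in the second, so the order of that pair was reversed. The ratio of RELB to RELA went from 0.0448, 0.0458 and 0.0460 to 0.155, 0.156 and 0.163. The differences in mean log2 ratio were 5.62, 5.07 and 1.79, each with no overlap between the groups. For each of these 3 ratios the exact two-sided permutation test over the libraries gave p = 0.1 (adjusted p = 0.1), the smallest that 3 against 3 allows.

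**Figure D4:**
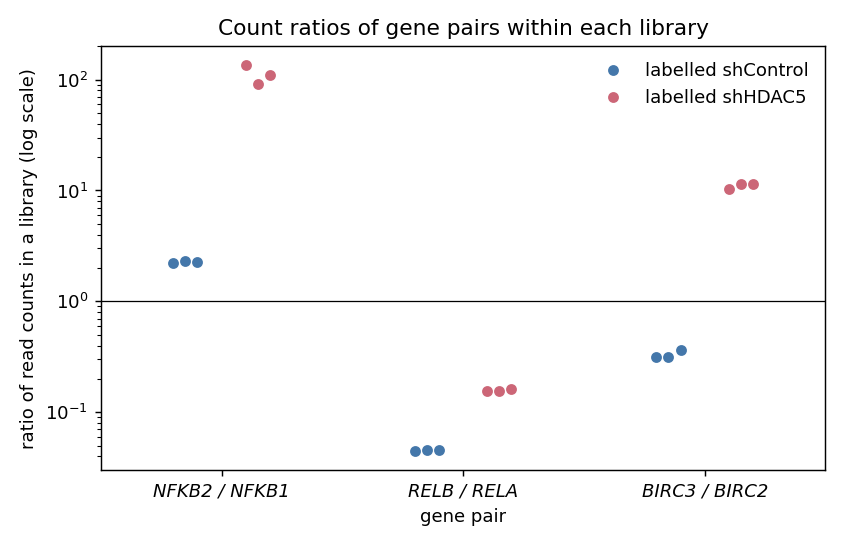
Ratio of read counts of 3 gene pairs inside each library (vertical axis, log scale; a line at a ratio of 1), for the libraries labelled shControl and shHDAC5. BIRC3 to BIRC2 crosses the line, from 0.314 to 0.363 up to between 10.3 and 11.5.

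Ordered by level per kilobase, the members changed places. The order within a group depends on the deposited gene lengths. Under shControl labels RELA (24.2 ± 0.512 CPM per kilobase) and NFKB2 (24.1 ± 0.953) led with overlapping values, followed by TNFAIP3 (13.6 ± 0.757) and NFKBIA (13.1 ± 0.215), which also overlapped, then BIRC2 (10.6 ± 0.352) and NFKB1 (7.95 ± 0.266; SD, n = 3 each). BIRC3 (2.11 ± 0.173), RELB (1.99 ± 0.020), NFKBIE (1.93 ± 0.386) and REL (1.53 ± 0.142) closed the order, each overlapping the next. Under shHDAC5 labels BIRC3 led at 75.8 ± 2.25 CPM per kilobase, ahead of NFKB2 (63.6 ± 1.18) and RELA (37.7 ± 0.0123), with no overlap among the 3. BIRC2 (11.4 ± 0.383), NFKBIA (11.1 ± 0.796), NFKBIE (10.997 ± 0.491) and RELB (10.8 ± 0.277) formed a run in which each overlapped the next, and TNFAIP3 (9.39 ± 0.448), REL (3.33 ± 0.0686) and NFKB1 (0.432 ± 0.0849) followed without overlap. The member that was last in this order, NFKB1, had been sixth of the 10 in the other group.

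Other genes of the pathway moved both ways too. Among 17 further inhibitors and brakes, 8 were higher, 6 lower and 3 did not pass (edgeR's quasi-likelihood test), a called share of 82.4% against the 84.7% of all tested genes. The list's median log2 fold change was 0.19. NFKBIZ, a nuclear atypical inhibitor that also helps activate some targets, rose from 13.6 ± 1.57 to 63.6 ± 1.01 CPM (SD, n = 3 each), a log2 fold change of 2.22. BCL3, a nuclear partner of p50 and p52 homodimers, fell from 61.4 ± 1.22 to 13.0 ± 1.22 CPM. TRAF3, the brake on the non-canonical arm, fell from 46.4 ± 1.69 to 14.2 ± 0.404 CPM, and TRAF3IP3, which binds it, rose from 0.233 ± 0.119 to 1.82 ± 0.188 CPM.

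Of 15 kinases and kinase partners, 7 were higher, 6 lower and 2 did not pass, so 86.7% were called beside 84.7% of all tested genes. The list's median log2 fold change was 0.09, as over all tested genes. The mRNA of MAP3K14, the kinase of the non-canonical arm, rose from 22.7 ± 1.97 to 89.8 ± 1.99 CPM (SD, n = 3 each), a log2 fold change of 1.98 ± 0.055 (SE). Its protein and the processing of p100 were not measured here. TAB3, an adaptor of the TAK1 kinase, rose from 58.1 ± 2.11 to 137 ± 2.97 CPM. IRAK1, the kinase below interleukin 1 and Toll-like receptors, fell from 190.4 ± 1.66 to 39.6 ± 2.37 CPM, and IKBKE, an IKK-related kinase, from 5.58 ± 1.01 to 0.695 ± 0.435 CPM.

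Of 21 tested receptors and adaptors (23 listed), 9 were higher, 9 lower and 3 did not pass (85.7% called, background 84.7%). The list's median log2 fold change was -0.07. TNFRSF1A, the main tumour necrosis factor receptor, fell from 145 ± 6.90 to 12.2 ± 1.09 CPM and LTBR, the lymphotoxin beta receptor, from 161 ± 7.30 to 10.1 ± 0.713 CPM (SD, n = 3 each). CD40, another receptor of the non-canonical arm, had no count under shControl labels and stood at 9.51 ± 0.900 CPM under shHDAC5 labels, at least 147-fold higher against 3 counts over the group. TRAF1, an adaptor and NF-kappaB target, rose from 0.538 ± 0.188 to 2.55 ± 0.130 CPM.

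Of 29 listed targets outside the members, 19 could be tested, and 10 were higher, 8 lower and 1, CXCL2, did not pass. The called share was 94.7%, and 84.7% over all tested genes. The list's median log2 fold change was 0.20. CXCL8, the neutrophil chemokine interleukin 8, had no count under shControl labels and 16.99 ± 1.70 CPM under shHDAC5 labels (SD, n = 3), at least 263-fold higher against the same floor. TNF rested on 1 count against 59, a ratio of 52.4 (95% exact counting interval 9.05 to 2104), and CCL20 on 3 against 82, a ratio of 24.3 (8.02 to 120). PLAU, the urokinase protease, fell from 13.0 ± 0.403 to 0.499 ± 0.0801 CPM (SD, n = 3 each). The 10 targets not tested, among them IL1B, VCAM1 and CXCL1, never exceeded 1.12 CPM in a library. Counting intervals cover counting error only. CXCL8, TNF, CCL20, CCL2 and IL1A had at most 4 counts in any library labelled shControl. They were kept for testing through the libraries labelled shHDAC5, so their higher calls partly follow from the filter. PLAU and IL6 were kept through the libraries labelled shControl, and their lower calls partly follow from it too. The called share of this list is therefore not read as a result about the targets.

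**Figure D5:**
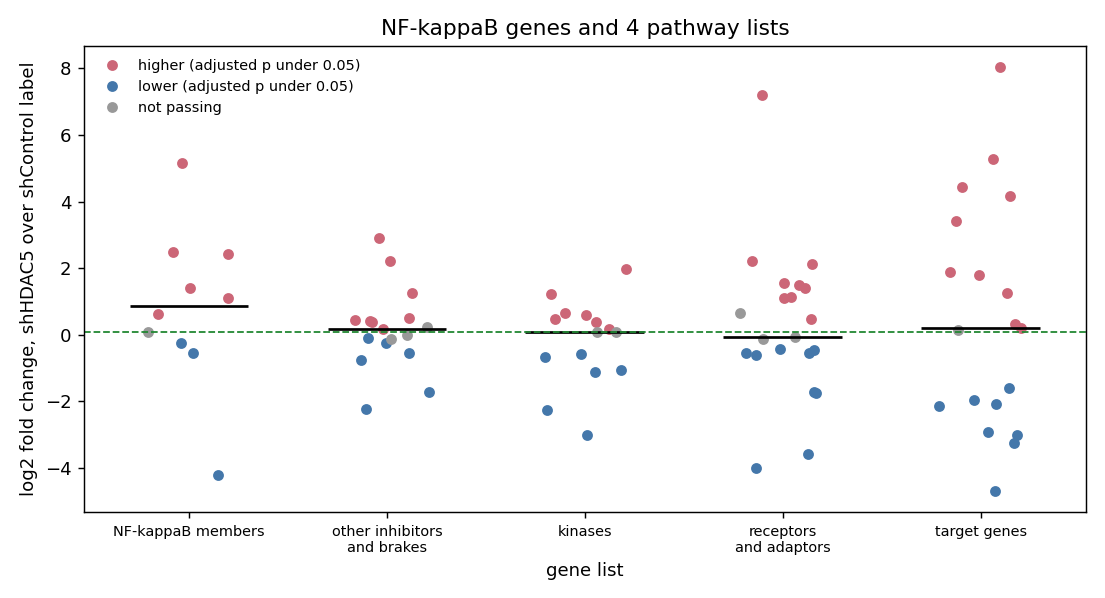
Log2 fold change of every tested gene of the NF-kappaB set and 4 pathway lists (vertical axis), colored by edgeR call, with list medians as bars and the median of all tested genes as a dashed line; CD40 and CXCL8, which had no count under shControl labels, are drawn at their lower bound. Each list has genes on both sides of the line, and the list medians run from -0.07 for receptors and adaptors to 0.88 for the 10 genes described here.

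The coding genes whose pattern over the 6 libraries was most like that of BIRC3, by Euclidean distance on log2 CPM among 13709 candidates, were AREG (distance 1.22) and BAIAP3 (1.93). AREG, an epidermal growth factor receptor ligand, went from 9.90 ± 0.369 to 651 ± 17.1 CPM and BAIAP3 from 16.0 ± 0.849 to 264 ± 7.27 CPM (SD, n = 3 each). NFKB1 had closer matches, KCTD15 (distance 0.286) and ZNF532 (0.350). KCTD15 went from 50.5 ± 1.41 to 2.95 ± 0.767 CPM and ZNF532 from 46.6 ± 0.659 to 2.68 ± 0.210 CPM.

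GATA1 peaks at the members were mostly weak in both PANC-1 lists. There is 1 list per condition, so no difference between lists can be tested, and the peak names inside the lists contradict their labels. The first peak of the list labelled shControl is named GATA1-SAHA-IP, and that of the list labelled shHDAC5 GATA1-NC-IP. In the sample titles the letters NC mark the control. Which treatment each list stands for is therefore uncertain. The lists held 121070 peaks under the shControl label and 249139 under the shHDAC5 label. The list labelled shControl held 26 peaks with a summit in a member or within 1 kb of it, at 8 of 10 members, and the list labelled shHDAC5 held 22, also at 8 of 10. A peak by this rule was present at 74.0% and 77.2% of 20037 coding genes. Per 100 kb of gene, members held 8.07 and 6.82 peaks, and coding genes 5.97 and 8.69. Folds and q-values of peaks are the authors'. At a q of at most 0.05 there was a peak at NFKB2 (fold 4.64, chr10:102401600-102402285), RELA (fold 4.51, chr11:65659561-65659943) and BIRC2 (fold 4.31, chr11:102374662-102375073) in the list labelled shControl and at no member in the other. The summit of each of these peaks lay more than 1 kb from the annotated start of its gene. Of the whole lists, 5.10% and 0.419% of peaks passed that q. The share of coding genes with such a peak was not counted. At the promoter of BIRC3 printed above, the nearest peak (chr11:102317538-102317929, fold 3.19) began beyond the start of the gene in the list labelled shControl, with a −log10 q of 0.602. In that list, weak peaks overlapped promoter windows of TNFAIP3 (fold 3.23, −log10 q 0.357) and RELA (fold 3.21, −log10 q 0.620). Peaks with a −log10 q of 0 overlapped windows of NFKB2 (fold 2.67) and REL (fold 2.40). No peak of the other list overlapped a member's window. The share over all promoter windows was not counted. NFKB1, the longest member, held 1 peak in that list and 10 in the other, longer list, none with a −log10 q above 0. NFKBIA held none in either list.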

How the data were processed

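For RNA the authors deposited raw whole-number counts for each Ensembl gene, with a gene length. The submitters' processing notes name fastp 0.23.2, featureCounts 2.0.1, MACS2 2.2.7.1 and hg38, without roles. The aligner, annotation release and strand setting were not given in the sources used here. Each deposited peak list gives a fold enrichment as a ratio and a −log10 q per peak, taken as the authors gave them.

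The 6 RNA libraries were grouped by their labels. Low genes were removed by edgeR's filter, libraries scaled by TMM and groups compared by the quasi-likelihood test of edgeR 4.0.16 (R 4.3.3), the model holding group alone. The filter keeps a gene high under either label, so calls of genes near the floor under the other label partly follow from it. A standard error is the absolute log2 fold change divided by the square root of F. CPM use the scaled library sizes. Ratios were tested by permutation in scipy 1.17.1. Symbols were matched for 61369 of 61541 identifiers. The code was tested on simulated data in which few genes changed. That test does not cover scaling where most genes are called, as here. Alternatives were other scalings and filters, DESeq2 1.42.0, a replicate block and leaving out each library. Members and lists were chosen with earlier results of these data known. Named genes are the members, HDAC5, the 4 called genes of largest change per list, and the 2 nearest patterns of the members with the largest rise and fall. WAKMAR2, markers, CXCL2, IL1B, VCAM1, CXCL1, CCL2, IL1A and IL6 were named outside this rule after their values were seen, and AGATAA was searched likewise. Inputs were not analysed here.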

Additional observations from a re-analysis of the deposited data

How the results depend on the processing

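NFKB1, NFKB2, REL, RELA, RELB, NFKBIE, TNFAIP3 and BIRC3 kept their direction and passed in each of the 13 alternatives. NFKBIA stayed lower in all 13 and lost its call in the 3 named in the report, with adjusted p from 0.000434 to 0.514 over the settings; BIRC2 stayed higher, with adjusted p from 4.33e-07 to 0.420. Leaving out any 1 library gave 6 members higher and 3 lower each time, with log2 fold changes of 5.09 to 5.21 for BIRC3 and -4.34 to -4.07 for NFKB1. The replicate number as a block gave 8514 genes higher and 7558 lower, against 8597 and 7644 without it, and changed no call of a member. Upper-quartile factors gave 9480 and 6843, total counts 9727 and 6596, and the filter of 10 counts in every library 6248 and 6295. Deviations of same-numbered libraries correlated at -0.0126, 0.00258 and 0.00593, and not every library correlated best with its own number, so the numbers were not taken to pair the samples. With 10 counts required in every library, 11 targets were called in place of 18. Targets near the floor under either label, such as CXCL8 and TNF, were then not tested. At a q of at most 0.05, members with a peak fell from 8 to 3 in the list labelled shControl. In the list labelled shHDAC5 they fell from 8 to 0. At a fold of at least 3 they fell to 7 in the former and to 1 in the latter. The shares of coding genes at these thresholds were not counted. The exact decamer was found in 2 members in place of 6. The depth limits genes near 1 CPM, such as TNF and CCL20.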
